A study of Zea mays with 6 samples.

Results

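In leaves of the transgenic maize line L100, 51 gene models were read in every library although they had almost no reads in the wild type, the inbred line Q319. They were chosen from 39628 gene models by their counts alone: at most 3 counts summed over the 3 wild type libraries, and at least 10 counts in each of the 3 L100 libraries. A library count is the number of sequenced RNA fragments assigned to a gene model. Because these counts chose the genes, their absence in wild type and their level in L100 are given as a description, without a test. In whole leaves, a lower count from fewer cells of a type and one from less RNA per cell cannot be told apart.

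The study sequenced RNA from leaves of field-grown maize (Zea mays) at leaf stage 6, with 3 libraries for Q319 and 3 for L100. No treatment was labelled, and the labels name neither the transgene nor its promoter, nor how many transformation events or plants lie behind L100. Whether the 3 libraries of a line stem from different plants is not labelled, so any spread between them may be technical. The alignment used the genome build of another inbred line, B73.

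Total counts were 8320337 to 9922468 in the wild type libraries and 6458248 to 7536583 in those of L100, so the group in which these genes are silent is the deeper one. Wild type replicate 3 stood apart: its log2 CPM correlated with those of the other libraries at 0.825 on average (Pearson, across all tested genes, which are not independent), against 0.880 to 0.904 for the other 5. The genes found without it are counted at the end. The leaf origin was checked with marker genes. The summed level of 8 genes that carry a leaf marker name, among them the C4 photosynthesis genes pep1 and pdk1, was 63873 to 92930 CPM in wild type (counts scaled to a library total of 1000000) and 98436 to 120584 CPM in the transgenic line. Of 6 kernel storage genes 4 had no count in any library, and the list summed to at most 0.409 CPM. The pollen list (6 genes, 3 of them at 0 in every library) summed to 0.0834 to 1.02 CPM in Q319 and 0.320 to 1.78 CPM in L100. The root list (2 genes, 1 at 0) ranged from 0.613 to 6.76 CPM in Q319 and from 0.836 to 1.13 CPM in L100. The meristem and inflorescence list (7 genes, 2 at 0) summed to 29.5 to 45.9 CPM in Q319 and 30.1 to 39.9 CPM in L100.

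Maize inbred lines are known to differ from each other in gene content as well as in gene sequence, and many predicted maize gene models have no known product. Gene models with the prefix GRMZM were predicted along the B73 genome, and those named after a sequenced clone, such as AC212186.3_FG011, by a gene prediction program on that clone. Few of the 51 could be given a function. RefSeq, NCBI's curated gene collection, holds a record for 10 of them, and 1 of these carries a gene name, AUX36 (GRMZM2G359924). For the other 50 only the gene model, its length and its level can be described and, for those with a record, its neighbours.

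The silence in wild type was complete in most of the genes. Of the 51 genes, 27 had no count in any wild type library, 11 had 1 count, 8 had 2 and 5 had 3. In all, the 51 genes collected 42 counts in wild type and 6331 in L100. The wild type counts were spread evenly, with 14, 13 and 15 in replicates 1 to 3. The rule itself allows no gene more than 3 counts. In L100 the sums were 2211, 1854 and 2266 counts in replicates 1 to 3. On the scale of CPM, with library sizes adjusted by TMM (a factor per library that balances the bulk of the genes), this was 308, 299.8 and 363 CPM in L100 and 1.43, 1.65 and 1.25 CPM in wild type.

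**Figure D1:**
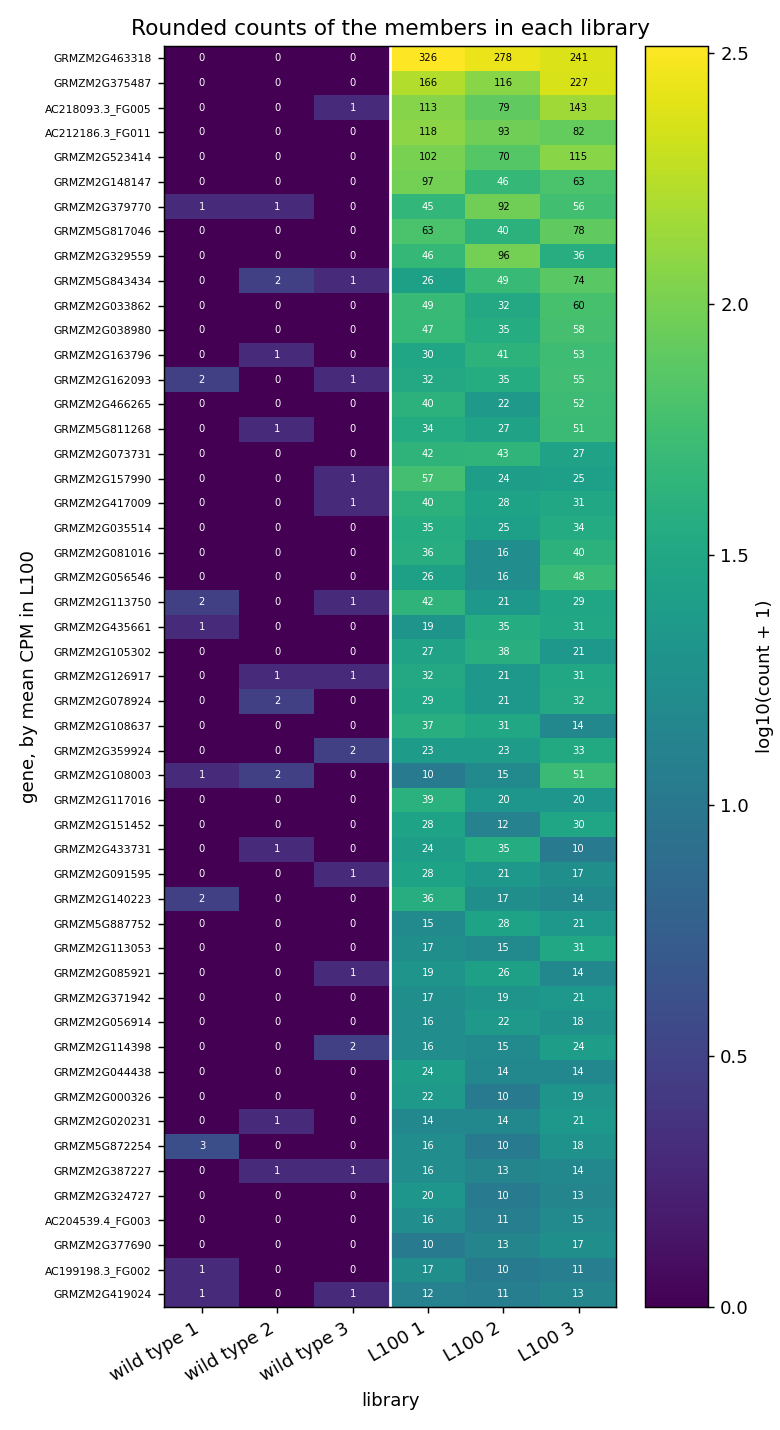
Rounded counts of the 51 genes (rows, ordered by mean CPM in L100) in each of the 6 libraries (columns). The number in each cell is the count and the colour its log10(count + 1). The wild type columns hold 0 to 3, and the L100 columns 10 to 326.

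The rule kept 0.129% of all gene models. Read against the 16514 gene models with at least 10 counts in every L100 library, the 51 are 0.309%. Among those 16514 genes, 27 had 0 wild type counts, 24 had 1 to 3, 26 had 4 to 10, 112 had 11 to 30 and 1323 had 31 to 100. A gene with exactly 0 wild type counts was thus more common than one with any single count from 1 to 10, for which there were 2 to 11 genes each. A count of 0 pools every level too low to be read, so this does not set the 51 apart as a class. The reversed rule (at most 3 counts in L100, at least 10 in every wild type library) found 75 genes, 0.189% of all. Among the genes read in every wild type library, 44 had 0 counts in L100, 31 had 1 to 3 and 60 had 4 to 10.

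**Figure D2:**
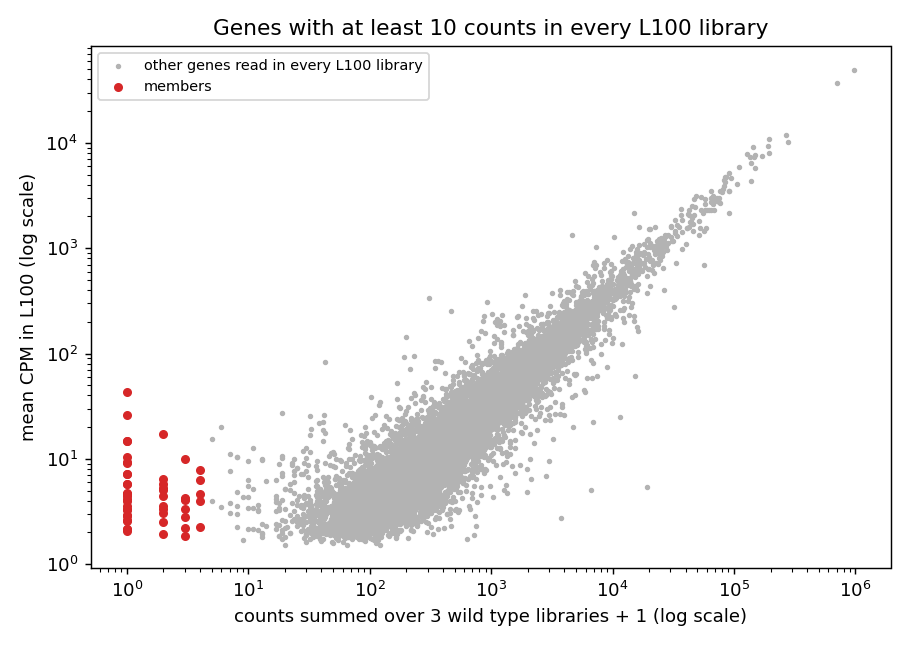
Mean level in L100 (CPM, log scale) against the counts summed over the 3 wild type libraries plus 1 (log scale), for the 16514 genes with at least 10 counts in every L100 library. The 51 genes (red) form 4 columns at the left edge. Between them and the diagonal of the other genes (grey) lie 26 genes with 4 to 10 wild type counts and 112 with 11 to 30.

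At the edges of the rule the values were continuous. The genes with the most wild type counts allowed include GRMZM2G113750, with 2, 0 and 1 counts in wild type and 42, 21 and 29 in L100, and GRMZM5G872254, with 3, 0 and 0 counts in wild type and 16, 10 and 18 in L100. Just outside lay GRMZM2G029722, with 2, 1 and 1 counts in wild type and 107, 100 and 94 in L100, and GRMZM2G433601, with 3, 0 and 1 against 21, 28 and 28. Another 4 genes missed the rule by 1 count in L100, among them GRMZM2G065344, with no wild type count and 17, 9 and 16 counts in L100.

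The most abundant of the genes was GRMZM2G463318, a model of 378 bases that alone held 13.3% of the L100 counts of the set. It had 326, 278 and 241 counts in L100 replicates 1 to 3 and 0 in each wild type library, or 43.0 ± 3.81 CPM (SD, n = 3) in L100. Against a floor of 3 counts over the whole wild type group (0.101 CPM) it was at least 424.5-fold higher. The L100 libraries lay close together here, within 1.18 times of each other.

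GRMZM2G375487, of 900 bases, followed with 166, 116 and 227 counts in L100 and 0 in each wild type library (26.1 ± 9.17 CPM, at least 257.6-fold). Next came AC218093.3_FG005, of 1578 bases, with 113, 79 and 143 counts in L100 and 0, 0 and 1 in wild type (17.1 ± 5.21 CPM). These L100 libraries differed more among themselves, with replicate 3 highest in both genes and replicate 2 lowest.

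AC212186.3_FG011, of 441 bases, had 118, 93 and 82 counts in L100 and none in wild type (14.9 ± 1.66 CPM). GRMZM2G523414, of 420 bases, had 102, 70 and 115 counts and none in wild type (14.7 ± 3.57 CPM). GRMZM2G148147, of only 228 bases, had 97, 46 and 63 counts and none in wild type (10.3 ± 3.05 CPM). The first of these held steady over the L100 libraries, and in the last replicate 1 stood above the other two.

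GRMZM2G379770, of 2667 bases, had 45, 92 and 56 counts in L100 and 1, 1 and 0 in wild type. GRMZM2G329559, of 2337 bases, had 46, 96 and 36 counts in L100 and none in wild type. In both long models replicate 2 was highest, at 14.9 and 15.5 CPM against 6.27 and 6.41 CPM in replicate 1. GRMZM5G843434, of 303 bases, had 26, 49 and 74 counts in L100, with replicate 3 highest instead, over 0, 2 and 1 counts in wild type.

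GRMZM5G817046 was the most abundant gene with a RefSeq record, where it is classed as a transcribed pseudogene, a gene copy that is transcribed but not thought to give a working protein. It had 63, 40 and 78 counts in L100 and none in wild type (9.25 ± 3.04 CPM). A second gene of the set, GRMZM2G114398, has the same class and had 16, 15 and 24 counts in L100 and 0, 0 and 2 in wild type. The other 8 recorded genes are classed as protein coding.

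AUX36 (GRMZM2G359924) is the only one of the 51 with a gene name. Its symbol has the form used for maize Aux/IAA genes; the name table has no descriptions, so the family is taken from the symbol. Aux/IAA proteins are short-lived repressors of auxin-responsive transcription that are degraded when auxin is present, which frees the auxin response factors they bind. AUX36 had 23, 23 and 33 counts in L100 and 0, 0 and 2 in wild type, or 4.07 ± 1.08 CPM in L100. The ratio of pooled, scaled counts was 59.7, with a 95% exact counting interval of 15.99 to 501.5 that covers counting error only. The rule chose AUX36 by these same counts, so the ratio and its interval are high by selection and nothing is read from them.

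Genes with a symbol made of AUX or IAA and a number were looked at beside it. The list has 21 genes, including a few that carry such a symbol as a synonym but belong to other auxin genes, such as the auxin-binding protein gene abp1. Of the 11 that were tested besides AUX36, 0 passed an adjusted p of 0.05 in either direction in edgeR's quasi-likelihood test over all 18702 tested genes (smallest adjusted p = 0.357), with a background of 0.834% of genes called. Their median log2 fold change (L100 over wild type) was -0.22, against -0.03 over all tested genes, and 3 of the 11 were above 0. AUX6 (GRMZM2G035465), for example, had 1052, 241 and 153 counts in wild type and 804, 372 and 561 in L100, and AUX14 (GRMZM2G077356) had 25, 77 and 92 in wild type and 20, 6 and 13 in L100. On the CPM scale the groups overlapped in both genes; in AUX14 wild type had 2.56, 9.80 and 7.68 CPM against 2.79, 0.970 and 2.08 CPM in L100.

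Most of the 51 were weakly read in L100. Their mean level ranged from 1.84 to 43.0 CPM with a median of 4.27 CPM, where the median of all genes read in every L100 library was 15.2 CPM. Only 7 genes reached 10 CPM, and 32 stayed under 5 CPM. The lowest was GRMZM2G419024, of 1572 bases, with 12, 11 and 13 counts in L100 and 1, 0 and 1 in wild type. The share of silent genes fell with level: it was 1.09% of the genes read under 5 CPM in L100, 0.376% from 5 to under 10 CPM, 0.144% from 10 to under 20 CPM and 0.0527% (2 of 3793 genes) from 20 to under 50 CPM. Of the 3108 genes at 50 CPM or more, 0 were silent in wild type. A weakly read gene can fall to 3 counts by a smaller change than a strongly read one, so this order is partly set by the rule.

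Per kilobase of gene model the order changed. GRMZM2G463318 stayed first with 113.7 CPM per kilobase, and GRMZM2G148147 moved to second with 45.4 CPM per kilobase. Altogether 14 of the 51 exceeded 13.0 CPM per kilobase, the median of all genes read in L100, and 12 of these were shorter than 500 bases. The long models were at the bottom, the longest, GRMZM2G433731 (3315 bases), at 1.07 CPM per kilobase from 24, 35 and 10 counts. Values per kilobase of the shortest models, such as GRMZM2G157990 with 156 bases and 33.8 CPM per kilobase, rest on a length below that of many sequenced fragments and are uncertain for that reason.

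Length was not itself part of the rule, though counts depend on it, and the silent genes were short. Their median length was 627 bases, against 1236 bases for the genes read in every L100 library, 948 bases for all gene models and 1062 bases for the 75 genes of the reversed rule. These sets are not matched for level. In the middle part of the range of CPM, the median was 744 bases for 25 of the silent genes and 1137 bases for 2958 others. Models under 500 bases made up 41.2% of the 51 (21 genes), 9.88% of the genes read in L100 and 18.7% of the reversed set. Among genes read in every L100 library, 1.29% of those under 500 bases were silent in wild type, 0.340% of those from 500 to under 1000 bases, 0.133% from 1000 to under 1500 bases and 0.151% of longer ones. The lengths are mostly those of coding sequence, with 46 of 51 a multiple of 3 (90.2%, and 88.7% over all gene models). Genes are not replicates, so no test was made of these shares.

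RefSeq records were also scarce. Of the 51 genes, 19.6% had a record, against 34.7% of the reversed set, 47.4% of all gene models and 73.3% of the genes read in every L100 library. All 7 genes at or above 10 CPM were without one. Records were scarcer within each length class too. Within models under 500 bases read in L100, 3.14% of those without a record were silent in wild type (17 of 542) and 0.367% of those with one (4 of 1090). From 500 to under 1000 bases the shares were 1.37% without a record and 0.0848% with one, and from 1000 to under 1500 bases 0.617% and 0.0269%. The record table belongs to a later B73 assembly than the one used for the counts; its part in these shares was not tested.

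**Figure D3:**
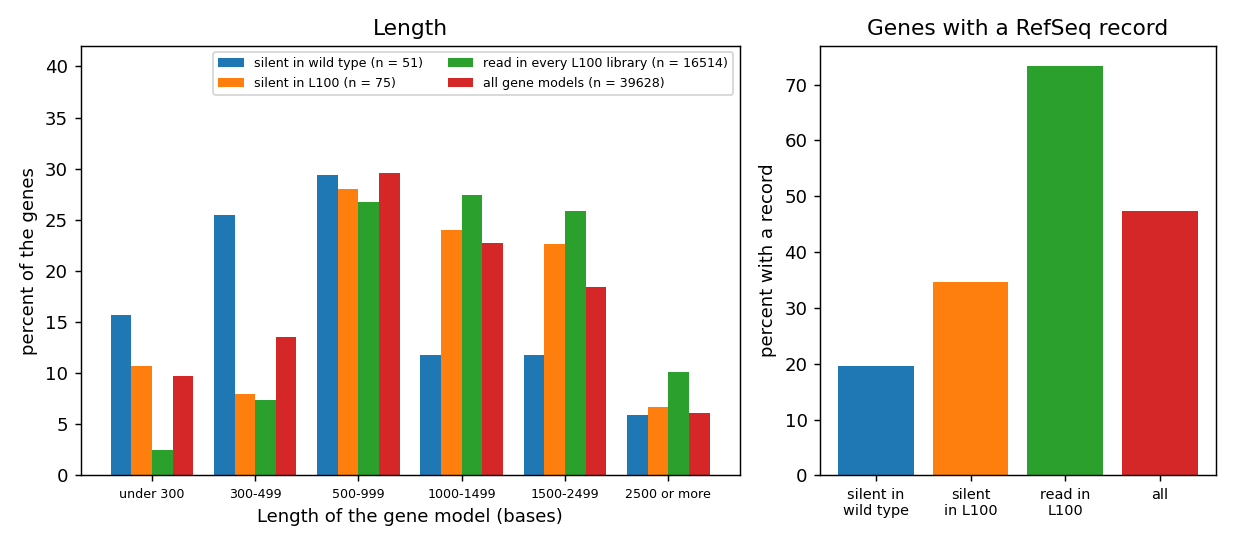
Left, the share of genes (percent) in each class of gene model length (bases) for the 51 genes silent in wild type, the 75 silent in L100, the genes read in every L100 library and all gene models. Right, the percent of each set with a RefSeq record. The 51 genes have the largest share of the 4 sets in the 2 shortest length classes and the smallest share with a record (19.6%).

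The 3 L100 libraries did not read the 51 genes equally. Replicate 3 was the highest of the 3 for 28 genes (54.9%) and replicate 2 the lowest for 24 (47.1%); for the 12802 other genes in the same range of mean CPM these shares were 31.9% and 34.1%. The SD over the 3 libraries had a median of 31.1% of the mean, where counting error alone would give about 19.6%. It exceeded the counting error in 76.5% of the 51 genes and in 76.7% of the others in the same range of CPM. Those others were read more strongly, with a median counting error of 12.3%, so the 2 shares are not matched for level. In the middle part of the range of CPM, the median was 35.7% for 25 of the silent genes and 26.6% for 2958 others, with a counting error of 19.6% and 19.2%. There the SD exceeded the counting error in 84.0% of the silent genes (21 of 25) and in 69.2% of the others. The extremes were GRMZM2G387227, with 16, 13 and 14 counts (3.54%), and GRMZM2G108003, with 10, 15 and 51 counts (91.4%). In GRMZM2G108003 replicate 3 carried most of the reads, and its wild type counts were 1, 2 and 0.

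**Figure D4:**
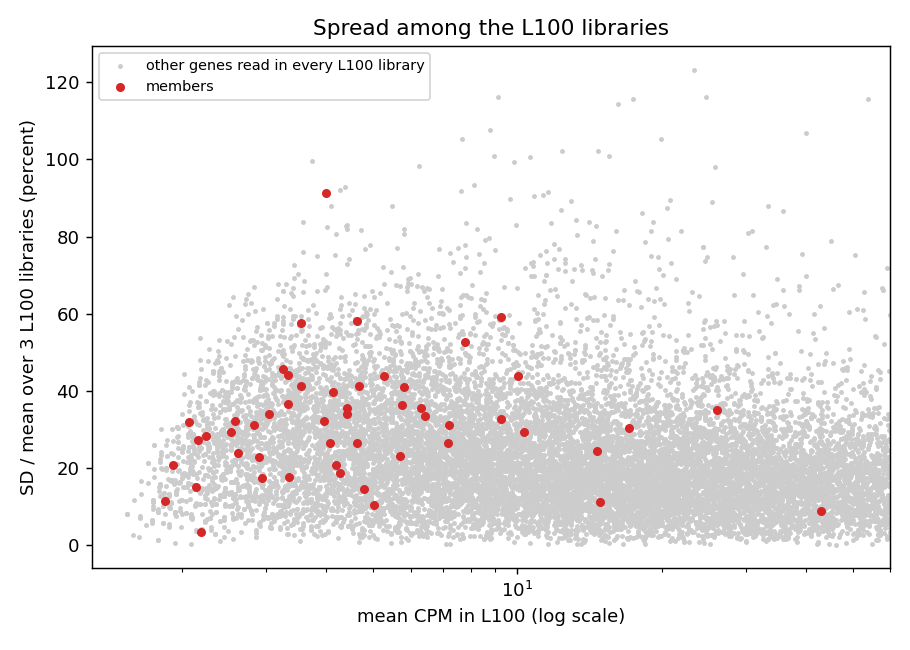
SD as a percent of the mean over the 3 L100 libraries against mean CPM in L100 (log scale, shown up to 60 CPM), for the 51 genes (red) and the other genes read in every L100 library (grey). The red points span 3.54% to 91.4%, with 28 of the 51 genes highest in L100 replicate 3.

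The 10 recorded genes could be placed among their neighbours by their order in the RefSeq table for Zm-B73-REFERENCE-NAM-5.0, an assembly newer than the build of the counts. They lie on chromosomes 1, 2, 4, 5, 6, 7 and 8, with 2 each on chromosomes 1, 5 and 6. A counted gene or neighbour is here a gene model matched to a RefSeq record, and models without one may lie closer. The 41 genes of the set without a record could therefore not appear as neighbours. Among the 10 placed genes, none was among the 3 closest counted genes on either side of another. The question was whether the genes beside them, whose counts the rule did not use, changed as well. Of the 20 closest counted neighbours 14 could be tested, and 0 of them passed edgeR's test (smallest adjusted p = 0.470, background 0.834%). DESeq2 also called 0. Their log2 fold changes lay between -0.91 and 1.10 with a median of 0.04, and 7 of the 14 were above 0.

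Neighbours could be read strongly in both lines where the gene between them was silent in 1. Beside GRMZM2G114398 (0, 0 and 2 counts in wild type, 16, 15 and 24 in L100) lies pfk1 (GRMZM2G021846), which by its name encodes phosphofructokinase, an enzyme of glycolysis. It had 2829, 1676 and 3135 counts in wild type and 2493, 2178 and 2117 in L100. Scaled for depth, wild type had 289, 213 and 261.5 CPM against 347, 352 and 339 CPM in L100. Each L100 library was thus above each wild type library, without passing the test (log2 fold change 0.44, edgeR adjusted p = 0.639). AUX36 lies between GRMZM2G161643 (20, 17 and 33 counts in wild type, 32, 22 and 31 in L100) and DER1.1 (GRMZM2G117388; 325, 172 and 204 against 258, 177 and 142), with 7 records that match no count on each side. On the CPM scale the groups overlapped in DER1.1; in GRMZM2G161643 they did not, where wild type had 2.05, 2.16 and 2.75 CPM against 4.46, 3.56 and 4.97 CPM in the transgenic line, and the difference did not pass (edgeR adjusted p = 0.473).

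The 6 closest neighbours that were read too weakly to be tested all had a lower mean CPM in L100 than in wild type, some on very few counts. The share of all untested genes with a lower mean in L100 was not counted, so nothing is read from this direction. GRMZM2G096680 had 0, 1 and 0 counts in wild type and 0 in each L100 library. GRMZM2G066326 had 0, 6 and 0 in wild type and 1, 0 and 0 in L100. For rps10 (GRMZM2G095511) wild type had 30, 16 and 9 counts against 3, 9 and 7 in L100. Its groups overlapped on the CPM scale. The other 3 differed more clearly and are given as examples picked after their values were seen. GRMZM2G108589, the next record to GRMZM2G108637, had 14, 2 and 25 counts in wild type and 2, 1 and 0 in L100, while GRMZM2G108637 itself had 0 in wild type and 37, 31 and 14 in L100. GRMZM2G055143, next to GRMZM5G817046, had 6, 5 and 4 counts in wild type and 1, 0 and 0 in L100. GRMZM2G003937, near GRMZM2G105302 (0 in wild type, 27, 38 and 21 in L100), had 20, 7 and 69 counts in wild type and 5, 3 and 2 in L100. On the CPM scale the groups overlapped in GRMZM2G108589 and not in the other two. Among the tested neighbours, GRMZM2G162065 and GRMZM2G176910 also lay lower in every L100 library than in any of wild type, and neither passed (edgeR adjusted p = 0.470 and 0.655). The share of all genes whose groups do not overlap was not counted. Nothing is therefore read from these separations, nor from those of pfk1 and GRMZM2G161643 in the other direction.

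Taking the closest 3 genes on each side gave 61 neighbours, of which 45 could be tested and 1 was called higher (background 0.519% for calls in this direction). This was GRMZM2G057571, the third counted gene after GRMZM2G091595 on chromosome 5, with 2, 5 and 6 counts in wild type and 38, 41 and 40 in L100 (log2 fold change 3.74 ± 0.49 SE, edgeR adjusted p = 0.0216). No library of wild type reached any of L100. On the other side of GRMZM2G091595, which had 0, 0 and 1 counts in wild type and 28, 21 and 17 in L100, lies a record that covers a pair of counted models. One of these, GRMZM2G060659, had 9, 15 and 23 counts in wild type and 155, 36 and 44 in L100, but did not pass (adjusted p = 0.102 in edgeR). The other model of the same record, GRMZM2G060583, had 748, 499 and 572 counts in wild type and 475, 451 and 370 in L100. The closest counted genes on each side of GRMZM2G091595 did not pass that test either. GRMZM2G361391, for example, had 84, 89 and 90 counts in wild type and 67, 78 and 82 in L100.

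**Figure D5:**
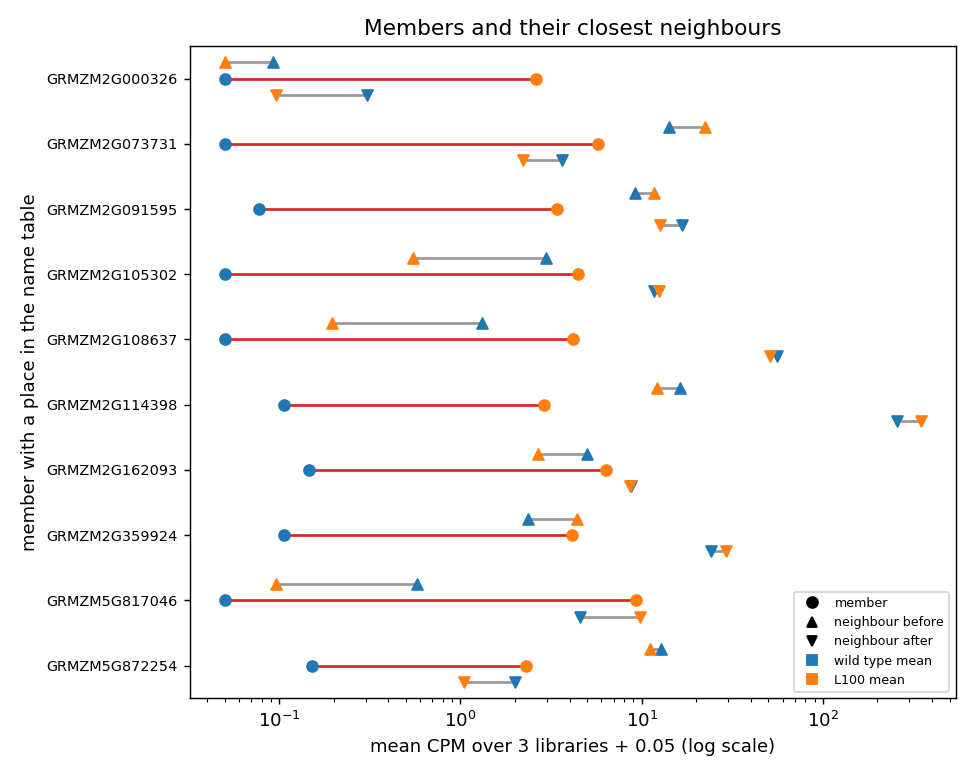
Mean CPM plus 0.05 (log scale) in wild type (blue) and L100 (orange) for the 10 placed genes (circles, red lines) and their closest counted neighbour before (upward triangles) and after (downward triangles). The red lines are long because the rule chose them; the 14 tested neighbours had log2 fold changes between -0.91 and 1.10.

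Some RefSeq records cover more than 1 gene model of the count tables. GRMZM2G091595, GRMZM2G114398 and GRMZM5G872254 each share a record with 1 other model. These partners were hardly read in any library: GRMZM2G040555 had 1 count in all 6 libraries together, GRMZM2G323172 had 1, and GRMZM2G095798 had 0. In these 3 records nearly all reads fell on 1 of the 2 models. Among the 4 genes named after clones, 2 have other models on the same clone in the tables. AC204539.4_FG003 had no wild type count and 16, 11 and 15 counts in L100, while AC204539.4_FG002 on its clone had 67, 28 and 77 in wild type and 38, 58 and 23 in L100, with overlapping groups (edgeR adjusted p = 0.954).

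In edgeR's test of L100 against wild type over all genes, 47 of the 51 were called higher, where 0.519% of the 18702 tested genes were. As the rule used the same counts, nothing is read from this share. The exceptions were GRMZM2G377690, GRMZM2G140223, GRMZM2G108003 and GRMZM5G872254 (adjusted p 0.0508 to 0.116 in edgeR). Of the 97 genes called higher, 50 are outside the set; each of them had at least 10 counts in every L100 library and from 4 to 4650 counts in wild type, 26 of them under 30. DESeq2 called all 51 higher. Over all tested genes it called 279 higher and 291 lower, or 3.06% in either direction. Without L100 replicate 1, 2 or 3 edgeR called 2, 0 and 0 of the 51, and without wild type replicate 1, 2 or 3 it called 30, 43 and 32. The median log2 fold change of the 51 was 7.16 with all libraries and 7.26, 7.40 and 7.26 without L100 replicate 1, 2 or 3. The rule chose the genes by these counts in every library, so it stays high by selection and nothing is read from it.

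How many genes the rule finds also depended on 1 library. Without wild type replicate 1 the same thresholds found 101 genes, the 51 and 50 more that had at most 3 counts in the other wild type libraries together. Without wild type replicate 3, the library that stood apart, they found 60, and without wild type replicate 2 they found 66. The same thresholds on fewer libraries can only add genes, so a larger number was fixed in advance and only its size is informative.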

How the data were processed

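Leaf RNA of 6 libraries was analysed, 3 per genotype. RNA was extracted with Trizol and sequenced on Illumina libraries, per the labels' protocols. Bowtie 0.12.2 and the build B73 RefGen_v3 are named in the submitters' processing notes; the counting tool and its use of strand are not given in these sources. The authors deposited, per the file headers, an estimated count per gene model, FPKM, a scaled fragment signal and a length. The deposited estimated counts were whole within 0.001 in all but 0.300% of values and were rounded. The authors' deposited FPKM and scaled signal were not used; the deposited lengths (another kind of value) were.

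Genes were tested with edgeR 4.0.16 in R 4.3.3 (quasi-likelihood, TMM, filterByExpr, Benjamini-Hochberg, threshold 0.05); standard errors are the log2 fold change over the root of F. Tested on simulated data of this comparison (19173 genes, 3 runs), it found 43.2% of the genes changed 4 times, 77.5% at 8 times and 92.3% at 16 times, while false calls made up 7.47%. A floor of 3 counts is 0.302 to 0.465 CPM per library; floors and intervals cover counting error only. Names and gene order came from RefSeq for Zm-B73-REFERENCE-NAM-5.0, which matched 18774 IDs (47.4%); no coordinates were used. Reads of near-identical copies may be split between models.

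The members and lists were chosen with earlier results of these data known. Genes named were those with a symbol, the 10 highest in mean CPM, the extremes of level, spread and length, and called neighbours; members beside placed neighbours, shared records and clone partners were added after values were seen. A planned comparison with closest paralogs was not made, because no protein sequences were used here. Alternatives were DESeq2 1.42.0, RLE scaling, no filter, a replicate block, each library left out and other thresholds. Same-numbered libraries did not pair throughout, so the block is given only as an alternative.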

Additional observations from a re-analysis of the deposited data

How the results depend on the processing

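The 51 genes became 27 with no wild type count allowed, 77 with up to 10, 87 with at least 5 counts in each L100 library and 26 with at least 20. Counts scaled to the smallest library gave 45 genes, 43 of them shared, and CPM thresholds 47, all shared. Leaving out 1 library gave 55 to 101 genes, the 101 without wild type replicate 1. The same thresholds on fewer libraries can only add genes, so these sets hold the 51 by construction. Over all genes edgeR called 156; DESeq2 called 570, and leaving out 1 library gave 0 to 222 calls. It called 0 without L100 replicate 2 or 3, where 1296 and 1282 genes had an unadjusted p below 0.05. With the replicate number as a block it called 5, of which 1 was among the 51; same-numbered libraries deviated together for replicates 1 and 2 (correlation 0.384 and 0.348) but not for replicate 3 (0.0146), so the numbers were not taken as pairs. Of the closest neighbours edgeR called 0 under each alternative and DESeq2 0. Several alternatives called few or no genes at all, so 0 among so few neighbours was nearly fixed there and shows no robustness. With the closest 3 on each side edgeR called 1. Without L100 replicate 3 the mean level of GRMZM2G108003 in L100 went from 3.996 to 1.91 CPM, and without replicate 2 that of GRMZM2G329559 from 9.23 to 6.09 CPM. The comparison with paralogs, at either identity threshold, was not run. For the weakest of the 51 genes, counting error alone is 28.9% of the level, which limits what single genes show.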
